A study of Homo sapiens with 8 samples.

Results

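The proteasome is the protease of the cytosol and nucleus that degrades proteins marked with ubiquitin. Its barrel, the 20S core, is a stack of alpha rings that gate the entrance and beta rings that hold the cutting sites. The 19S particle caps the barrel, binds ubiquitin chains, removes them and unfolds the substrate with a ring of ATPases. Dedicated chaperones build the particles, and other caps, such as the PA28 and PA200 activators, can take the place of the 19S particle. When proteasome activity falls, the transcription factor NFE2L1 is known to escape degradation and to raise transcription of the subunit genes together.

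The expression of 48 genes of this system was followed in the 8 libraries of A673/TR/shFEZF1 cells, out of 34792 genes whose reads were summed. A673 is an Ewing sarcoma cell line. The A673/TR/shFEZF1 cells carry a constitutive tetracycline repressor and a hairpin RNA against FEZF1, a zinc finger transcription factor, that doxycycline switches on. Control cultures (n = 4) received no doxycycline, and doxycycline cultures (n = 4) received 1 µg/mL for 72 h. Each group held 1 culture of the polyclonal population and 1 each of clones 3, 5 and 6, so an origin had 1 culture per condition. All cultures share the repressor and the hairpin cassette, and no culture given doxycycline without the hairpin was analysed here, so the drug, the hairpin and the loss of FEZF1 cannot be told apart. Clones of 1 line are not independent cell lines. The main fit took origin as a block, so its p-values for doxycycline rest on how the differences varied between these pairs of cultures. They do not measure a spread between cell lines.

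The members were listed by their place in the complex: 7 alpha ring subunits, 7 beta ring subunits, 6 ATPases and 12 other subunits of the 19S particle, 8 assembly chaperones, 5 activators and inhibitors, 2 deubiquitinases and NFE2L1. The list was proposed with the values of this doxycycline comparison in view. PSMB2 was singled out because of its low values there, so its values are a description and carry no test. All 48 genes passed the filter on low counts, as did 15993 genes in all. For 43 members at least 90% of the reads implied by the mean in the authors' gene table were matched to the symbol. The share was lower for PSME4 (32.7%), PSMC6 (48.4%), UCHL5 (50.5%), NFE2L1 (82.5%) and PSMG3 (86.2%), whose values rest on part of their transcripts.

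Libraries held 26719886 to 42422421 assigned reads. FEZF1, the target of the hairpin, was at 96.4, 70.5, 107 and 74.4 CPM (reads scaled to a common library size by TMM) in the control cultures of the polyclonal population and clones 3, 5 and 6. It was at 60.6, 43.0, 60.8 and 36.4 CPM in the same order with doxycycline, lower in 4 of 4 pairs. The Ewing sarcoma markers NR0B1, NKX2-2, CD99, STEAP1 and CCND1 were detected in each library. NR0B1 rose with doxycycline (log2 fold change 0.67, edgeR adjusted p = 0.00745) and so did NKX2-2 (0.30, edgeR adjusted p = 0.0414), while the other 3 were not called. Both calls depended on the pairing. Without origin as a block the edgeR adjusted p was 0.1245 for NR0B1 and 0.8251 for NKX2-2. The leukocyte markers PTPRC and CD3E stayed at or under 0.07 TPM. The epithelial and endothelial markers EPCAM and PECAM1 lay at or under 2.92 CPM and the keratin KRT8 between 4.46 and 17.8 CPM. EPCAM was at 0.101, 0.0315, 1.74 and 0.121 CPM in the controls, in the order above, so its ratios rest on few reads outside clone 5. EPCAM, PECAM1 and KRT8 were each higher with doxycycline in 4 of 4 pairs, as were 17.3% of all tested genes. In that order their log2 fold changes were 1.90, 0.89 and 0.78 (edgeR adjusted p = 0.0501, 0.107 and 0.122). Their summed level was 4.91 to 7.08 CPM in the controls and 7.32 to 21.5 CPM with doxycycline, and their part in the results below was not tested.

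The hairpin and the proteasome transcripts were set side by side as sequences, since PSMB2 and FEZF1 were both lower with doxycycline. The first line gives the target in the protein-coding FEZF1 transcript, which crosses the junction of exons 1 and 2 on the minus strand of chromosome 7 (GRCh38, positions 122303292 to 122303311 and 122303637). Capitals mark the 7 bases that pair with guide bases 2 to 8, the seed. The same 7 bases occur in the reference transcripts of 3 of the 48 members, and the last lines show them in PSMB2 and PSMA4, with 10 bases on either side.
FEZF1 target: ggtctttaatgcgCACTATAa
guide strand: uUAUAGUGcgcauuaaagacc
PSMB2: tttcacttaaCACTATAttagagattg
PSMA4, 3′ UTR: agcacttcagCACTATAcctgggtgcc
PSMA4, coding sequence: actccaggacCACTATAttttctccag
The PSMB2 match lies in the 3′ UTR, at bases 1959 to 1965 of a transcript of 4426 bases (chr1:35602002-35602008, minus strand). PSMA4 holds the heptamer in the 3′ UTR at chr15:78550646-78550652 and in the coding sequence at chr15:78542200-78542206, both on the plus strand. The 3 members with the heptamer were 6.2% of the 48, and 6.1% of 15008 tested genes with a reference transcript had the heptamer in the 3′ UTR. The longest run that PSMB2 shared with the sense strand was 7 bases, that of the heptamer, and 69.6% of the tested genes had a run at least as long. Among the members the longest shared run was 5 to 11 bases, with a median of 6, and the maximum was in PSMD1 and UCHL5. The levels of PSMB2 and PSMA4 with doxycycline are given below, and whether the 7 bases bear on either was not tested. A match of this kind is a description of the letters and not evidence of binding.

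PSMB2, a subunit of the beta ring that carries no cutting site, was lower with doxycycline in each origin. In the control cultures of the polyclonal population and clones 3, 5 and 6 it was at 133, 156, 158 and 150 CPM. With doxycycline it was at 61.4, 54.8, 53.5 and 47.8 CPM. The highest doxycycline culture therefore lay well below the lowest control culture. Control cultures averaged 149 ± 11.2 CPM and doxycycline cultures 54.4 ± 5.57 CPM (SD, n = 4 per group), and the fitted log2 fold change was -1.46 (SE 0.0897), 0.364 of the control level. The level was lower by 53.9% in the polyclonal population, 64.9% in clone 3, 66.1% in clone 5 and 68.0% in clone 6. The polyclonal population thus showed the smallest difference of the 4 origins. In these bulk libraries fewer cells with the transcript and less of it per cell cannot be told apart.

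The difference was carried by 1 transcript. The longest PSMB2 model, of 4426 bases, held at least 99.31% of the gene's estimated reads in each library. The other 2 models, of 4351 and 4235 bases, were at most at 0.388 TPM. Values on that transcript went from 53.904, 58.865, 58.562 and 54.624 TPM in the controls to 24.686, 21.666, 20.134 and 16.889 TPM with doxycycline.

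Among the 14 subunits of the 20S core, which stand in equal numbers in the assembled barrel, PSMB2 had the lowest transcript level per length in all 8 libraries, in the controls too. PSMB2 was at 54.0 to 59.3 TPM in the controls, against a median over the other 13 core subunits of 457.5 to 537.9 TPM. That is 11.8% ± 1.21 of the median (SD, n = 4). With doxycycline the share was 3.55% ± 0.973 and its range was 2.32% to 4.7%. The next lowest core subunit was PSMA5, at 75.2, 79.1, 77.5 and 84.0 TPM in the controls and 88.4, 96.2, 106.2 and 115.9 TPM with doxycycline. PSMB2 and PSMA5 have the longest models of the 14, with mean effective lengths of 4263 and 3649 bases against 592 to 1271 bases for the other 12. A level per length rests on that length, and how far the low values come from the long 3′ ends of these models was not tested.

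**Figure D1:**
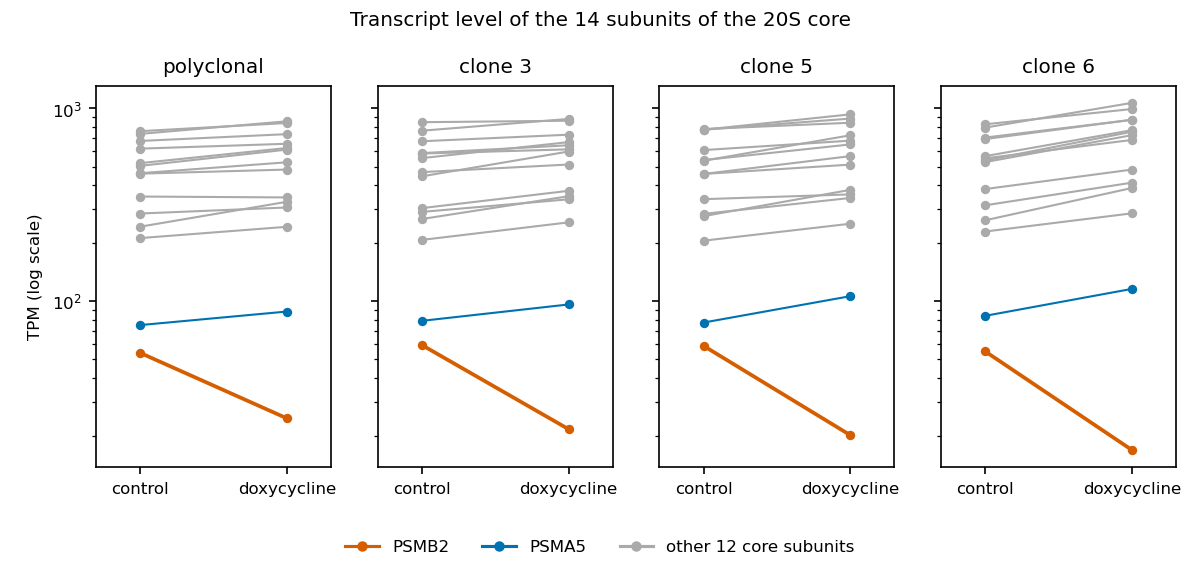
TPM (log axis) of the 14 subunits of the 20S core in the control and the doxycycline culture of each origin, with a line joining the 2 cultures. PSMB2 lies below the other 13 subunits in each panel and goes from 54.0 to 24.7 TPM in the polyclonal population and from 54.9 to 16.9 TPM in clone 6.

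Among the other subunits of the core and of the 19S particle, those that changed were higher with doxycycline. Of the 47 members besides PSMB2, 43 had a log2 fold change above 0, with a median of 0.20, while the median over all tested genes was 0.004. With origin as a block, 15 of the 47 (31.9%) rose and 0 fell (quasi-likelihood test of edgeR, adjusted by Benjamini-Hochberg across the tested genes), against 3.73% of all tested genes that rose and 3.91% that fell. All 15 were among the 31 other subunits of the 20S core and 19S particle, and 0 of the 16 remaining members were called. A total of 29 of the 47 (61.7%) were higher with doxycycline in 4 of 4 pairs, against 17.3% of all genes. In 7 of the 47 every doxycycline culture lay above every control culture (2.64% of all genes): PSMB3, PSMB6, PSMB7, PSMC6, PSMD1, PSMD4 and PSMD11. The changes were small, with called log2 fold changes of 0.21 to 0.41, or 1.16 to 1.33 times the control level. The list was proposed with this comparison in view. Its shares and the members' adjusted p-values, here and below, are therefore a description and not independent support.

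These calls depended on the pairing, on the origins in the fit and on the transcripts summed. Curated transcripts alone left 6 of the 47 called, against 1.42% of all genes called higher. Without the replicate block, 0 of the 47 were called by edgeR (15 at an unadjusted p under 0.05, as were 7.22% of all tested genes), and 1 of all tested genes was (0.00625%). Leaving out clone 5 or clone 6 also left 0 called, where 0.438% and 0.694% of all tested genes were called higher. In each of these fits 24 members had an unadjusted p under 0.05, against 17.2% and 19.2% of all genes. Leaving out clone 3 left 6 members called and leaving out the polyclonal population 11, against 1.44% and 1.68% of all genes called higher. DESeq2 with the block called 23, against 5.31%. PSMA5, PSMB7, PSMD2, PSMD3 and PSMD11 were called in 8 of 11 alternatives each, and PSMD1 in 3 of 11. Without clone 6, the median log2 fold change of the 47 was 0.14 and 39 of them were above 0.

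**Figure D2:**
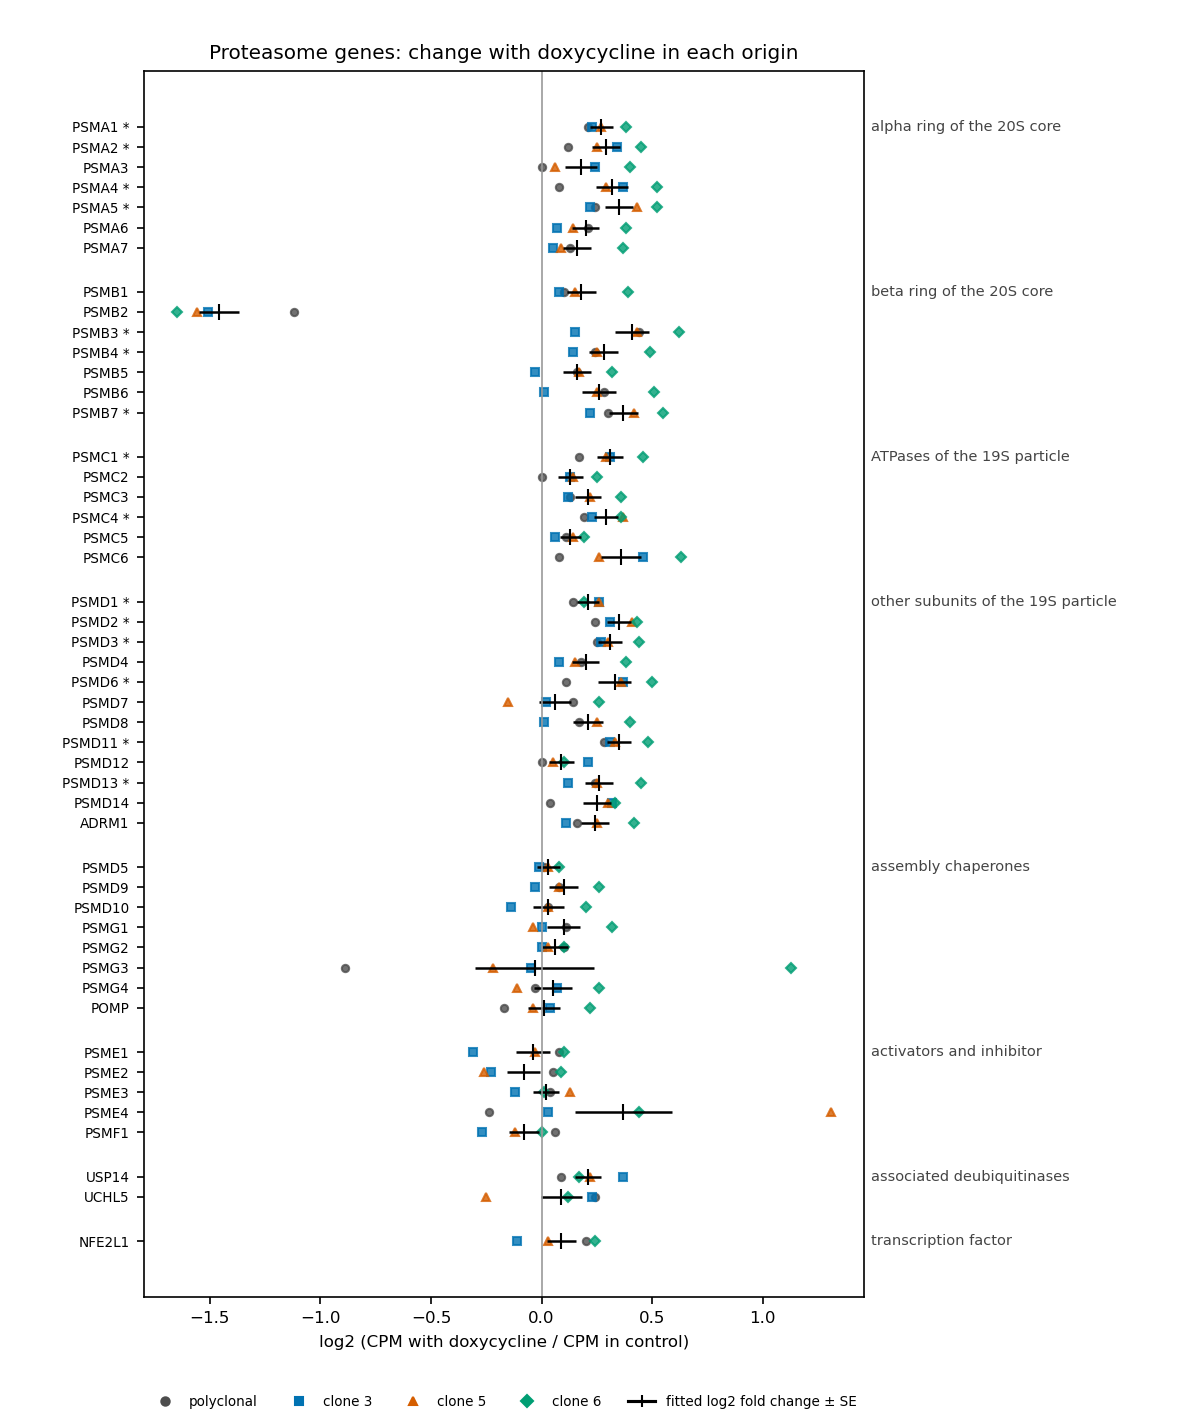
Log2 ratio of CPM with doxycycline to CPM in the control for each member and origin (coloured points), with the fitted log2 fold change and its SE (black), grouped by role. A star marks the 15 members called higher, and PSMB2, which carries no test, lies alone at -1.12 to -1.65.

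The size of the difference was also followed by origin. The median log2 ratio of the 47 members was 0.12 in the polyclonal population, 0.11 in clone 3, 0.17 in clone 5 and 0.37 in clone 6, where 46 of the 47 were above 0. Over all tested genes the same median was at most 0.01 in each origin. PSMB2 minus the median of the other core subunits was -1.32 in the polyclonal population, -1.66 in clone 3, -1.81 in clone 5 and -2.09 in clone 6, on the log2 scale. With 1 pair of cultures per origin these differences between origins were not tested.

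In the alpha ring, which forms the gate of the barrel, 4 of 7 subunits rose (PSMA1, PSMA2, PSMA4 and PSMA5) and all 7 were higher in 4 of 4 pairs, PSMA3 by only 0.0016 on the log2 scale in the polyclonal population. For this and the roles below, 3.73% of all tested genes rose and 17.3% were higher in 4 of 4 pairs. The calls by role share the dependence on the pairing, the origins in the fit and the transcripts summed given above. PSMA5 had the largest log2 fold change of the ring. It was at 159, 178, 179 and 196 CPM in the controls and 188, 208, 241 and 281 CPM with doxycycline, in the order polyclonal, clone 3, clone 5, clone 6. The lowest doxycycline culture lay within the range of the controls, and the log2 fold change was 0.35 (SE 0.0647, adjusted p = 0.0223 by edgeR's quasi-likelihood test). PSMA4 went from 269, 278, 292 and 339 CPM to 284, 359, 358 and 487 CPM, again with overlap, a log2 fold change of 0.32 (SE 0.073, edgeR adjusted p = 0.0433). PSMA1 was at 133, 139, 141 and 159 CPM in the controls and 154, 164, 170 and 207 CPM with doxycycline, a log2 fold change of 0.27. PSMA2 went from 209, 210, 228 and 255 CPM to 227, 265, 272 and 348 CPM, a log2 fold change of 0.29. Of the 3 subunits that were not called, PSMA3 had 0.18 and PSMA6 had 0.20 on the log2 scale, and the polyclonal pair of PSMA3 was all but level, at 159.65 and 159.82 CPM. PSMA7 was lowest of the ring at 0.16 (SE 0.063, edgeR adjusted p = 0.165).

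In the beta ring 3 of the 6 subunits besides PSMB2 rose: PSMB3, PSMB4 and PSMB7. PSMB3, a subunit without a cutting site, had the largest change of the 47. It was at 83.2, 106, 104 and 99.4 CPM in the controls and at 113, 118, 139 and 153 CPM with doxycycline. The groups did not overlap, and the log2 fold change was 0.41 (SE 0.077, edgeR adjusted p = 0.0242). PSMB7, which carries the trypsin-like site, went from 238, 281, 278 and 282 CPM to 293, 327, 372 and 414 CPM, also without overlap. Its log2 fold change was 0.37 (SE 0.0647, edgeR adjusted p = 0.0199). PSMB4, another subunit without a cutting site, rose from 321, 358, 370 and 383 CPM to 378, 396, 440 and 537 CPM, with overlap and a log2 fold change of 0.28 (SE 0.0645). The neighbouring PSMB1 had 0.18 (SE 0.0643) and was not called. PSMB5, the chymotrypsin-like subunit and the main target of proteasome inhibitors such as bortezomib, had 0.16 (SE 0.0642) and was lower in clone 3, and PSMB6, the caspase-like subunit, had 0.26 (SE 0.078). Their edgeR adjusted p-values were 0.182 and 0.0829.

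Of the 6 ATPases that unfold substrates, 2 rose, PSMC1 and PSMC4, and all 6 were higher in 4 of 4 pairs, PSMC2 by only 0.0048 on the log2 scale in the polyclonal population. PSMC1 was at 337, 379, 364 and 422 CPM in the controls and 380, 470, 444 and 581 CPM with doxycycline. The log2 fold change was 0.31 (SE 0.0587, edgeR adjusted p = 0.0251), although the groups overlapped. PSMC4 went from 226, 285, 271 and 242 CPM to 258, 333, 351 and 312 CPM, a log2 fold change of 0.29 (SE 0.0544). PSMC3, the most abundant ATPase by CPM in each library, was at 475 to 631 CPM in the controls and 520 to 714 CPM with doxycycline, and its log2 fold change of 0.21 (SE 0.057) did not pass. PSMC2 had 0.13 (SE 0.0553). PSMC6 had the largest change of the ATPases, 0.36 (SE 0.0898), which did not pass (edgeR adjusted p = 0.0522), and PSMC5 the smallest, 0.13 (SE 0.0486, edgeR adjusted p = 0.159).

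Of the 12 other subunits of the 19S particle, 6 rose: PSMD1, PSMD2, PSMD3, PSMD6, PSMD11 and PSMD13. PSMD2, a large scaffold of the base, was the member with the smallest p of the 47. It was at 699, 858, 793 and 717 CPM in the controls and 829, 1063, 1056 and 966 CPM with doxycycline. Its log2 fold change was 0.35 (SE 0.0532, edgeR adjusted p = 0.0139) and only the polyclonal culture with doxycycline fell inside the range of the controls. PSMD11, a lid subunit, went from 172, 199, 207 and 180 CPM to 209, 246, 261 and 251 CPM, so the groups were apart, with a log2 fold change of 0.35 (SE 0.0537, edgeR adjusted p = 0.0142). PSMD6, also of the lid, was at 61.2, 63.6, 61.5 and 74.3 CPM in the controls and 65.9, 82.4, 78.7 and 105 CPM with doxycycline, a log2 fold change of 0.33 (SE 0.073). PSMD1, the other large scaffold of the base, went from 359, 385, 394 and 379 CPM to 395, 460, 471 and 432 CPM, without overlap, and had the smallest called change, 0.21 (SE 0.049). PSMD13 went from 96.3, 119, 108 and 109 CPM to 114, 130, 129 and 148 CPM, and its call was the nearest to the threshold (log2 fold change 0.26, SE 0.0637, edgeR adjusted p = 0.0475). PSMD8 had 0.21 (SE 0.068) and was not called. PSMD14, the deubiquitinase of the lid, had 0.25 (SE 0.0629, edgeR adjusted p = 0.0547), and the ubiquitin receptors PSMD4 and ADRM1 had 0.20 (SE 0.0607) and 0.24 (SE 0.0633), neither of which passed. PSMD7, the partner of PSMD14, had the smallest change of the particle, 0.06 (SE 0.0726), and was lower with doxycycline in clone 5.

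**Figure D3:**
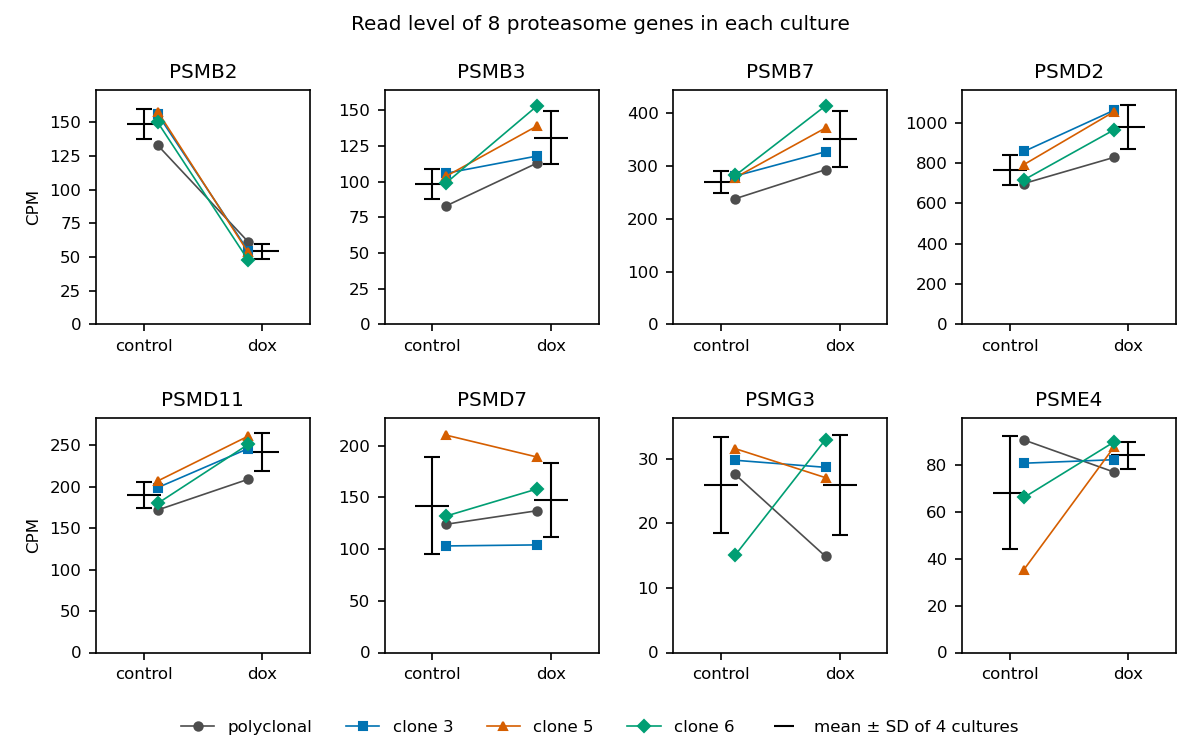
CPM of 8 members in each culture, with lines joining the 2 cultures of an origin and the mean ± SD of 4 cultures per group in black. PSMB2 is lower in each origin, PSMB3, PSMB7, PSMD2 and PSMD11 are higher in each, PSMD7 differs by origin, and PSMG3 and PSME4 each hold cultures far below the rest.

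No assembly chaperone was called. Their log2 fold changes lay between -0.03 and 0.10 with a median of 0.04, and 0 of 8 were called (0 at an unadjusted p under 0.05 by edgeR). Over all tested genes 7.63% were called in either direction. With so few genes, the lack of calls does not set the chaperones apart from other genes. POMP, the maturation factor of the core that helps beta subunits join, was at 73.3, 80.5, 82.0 and 88.9 CPM in the controls and 65.4, 82.7, 79.9 and 104 CPM with doxycycline. Neither group was the higher, and the log2 fold change was 0.01 (SE 0.0717). PSMG1 and PSMG2, which pair to build the alpha ring, had 0.10 (SE 0.0733) and 0.06 (SE 0.0601). The base chaperones PSMD5, PSMD9 and PSMD10 had 0.03, 0.10 and 0.03. PSMG3, of the other alpha ring pair, was at 27.6, 29.8, 31.6 and 15.1 CPM in the controls and 14.9, 28.7, 27.1 and 33.0 CPM with doxycycline. The low values were 1 culture of each group, polyclonal with doxycycline and clone 6 without, and the log2 fold change of -0.03 had an SE of 0.269.

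The activators and the inhibitor were not called either (0 of 5 by edgeR, 0 at an unadjusted p under 0.05). Again 7.63% of all tested genes were called, so this count does not set them apart from other genes. The PA28 subunits PSME1 and PSME2, induced by interferon, had -0.04 (SE 0.0759) and -0.08 (SE 0.075), PSME3, the nuclear PA28 subunit, had 0.02 (SE 0.0574), and PSMF1, the inhibitor PI31, had -0.08 (SE 0.0661). PSME4, the PA200 cap, was at 90.5, 80.6, 35.3 and 66.0 CPM in the controls and 76.8, 82.1, 87.6 and 89.7 CPM with doxycycline. The control of clone 5 was low. Only 32.7% of the PSME4 reads were matched, on 1 transcript. The file of the clone 5 control lists its transcripts in another order than the other 7 files. That concerns every gene of the library, and whether it bears on PSME4 or on any other clone 5 value was not tested. The log2 fold change was 0.37 (SE 0.218, edgeR adjusted p = 0.348), and 0.06 without clone 5.

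Of the deubiquitinases that dock on the 19S particle, USP14 was higher in 4 of 4 pairs, from 226, 232, 235 and 260 CPM to 241, 299, 273 and 293 CPM. Its log2 fold change of 0.21 (SE 0.0583) did not pass (edgeR adjusted p = 0.0658). UCHL5 had 0.09 (SE 0.0911). The transcript of NFE2L1 was at 347, 390, 289 and 259 CPM in the controls and 398, 361, 296 and 305 CPM with doxycycline, with overlap and a log2 fold change of 0.09 (SE 0.0675, edgeR adjusted p = 0.476). NFE2L1 is known to be controlled as a protein, which these libraries do not measure.

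NFE2L1 and its small MAF partners bind antioxidant response elements, whose core is TGACNNNGC. In RefSeq promoters (GRCh38.p14, 250 bases before to 50 after the start) this core was sought on both strands for the 42 members that matched. It was present in 15 of them (35.7%), in 14.9% of 12379 tested genes and in 13.6% of all 27305 promoters. Of the members called higher with a promoter 4 of 14 held it, and of those not called 11 of 27, and the PSMB2 promoter held none in this window. The 80 bases below come from promoters of PSMB3, the member with the largest rise, and PSMD3, which rose, and of PSMD12 and ADRM1, which were not called. Capitals mark the core.
PSMB3: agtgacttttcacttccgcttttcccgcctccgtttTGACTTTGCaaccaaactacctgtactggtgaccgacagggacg
PSMD3: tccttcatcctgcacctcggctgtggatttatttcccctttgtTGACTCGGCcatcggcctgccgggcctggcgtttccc
PSMD12: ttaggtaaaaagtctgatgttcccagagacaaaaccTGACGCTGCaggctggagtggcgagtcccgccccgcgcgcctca
ADRM1: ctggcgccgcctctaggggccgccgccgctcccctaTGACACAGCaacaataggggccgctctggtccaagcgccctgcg
They lie at chr17:38752601-38752680 (plus strand), chr17:39980727-39980806 (plus), chr17:67366699-67366778 (minus) and chr20:62302723-62302802 (plus). PSMD3, at 166, 196, 203 and 148 CPM in the controls and 198, 236, 250 and 201 CPM with doxycycline, had a log2 fold change of 0.31 (SE 0.0537, edgeR adjusted p = 0.0192). PSMD12 had 0.09 (SE 0.0543, edgeR adjusted p = 0.364), so members with the core were found on both sides of the threshold.

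Levels of the proteasome genes were also compared between origins, in a fit that held doxycycline as the other term. Of the 48 members 27 were called by origin with edgeR's quasi-likelihood test (56.2%, against 39.4% of all tested genes). Without the polyclonal population 15 were called (31.2%, against 33.5% of all genes), a share under that of all genes, and without clone 6 the count was 12 of 48, against 18.1% of all genes. Among the 27, by the mean of the 2 cultures of an origin, clone 6 was the highest for 18 and the polyclonal population the lowest for 20. All 7 alpha ring subunits were among them, each lowest in the polyclonal population and highest in clone 6 by these means, by 1.26 to 1.49 times. The means include the doxycycline cultures. Which origin was highest or lowest was not counted over all genes, so these counts do not set the proteasome genes apart. An origin also cannot be told apart from how its pair of cultures was handled. In the controls alone PSMA3 was lowest in clone 3 (149 CPM, against 160 in the polyclonal population). PSMA7 was highest there in clone 5 (395 CPM, against 360 in clone 6). PSMD7 had the smallest p of the members by origin. It was at 210 and 189 CPM in clone 5 and at 103 and 104 CPM in clone 3, and its origin means differed by 1.93 times (edgeR adjusted p = 0.00262). PSMG4 was at 28.7 CPM in clone 5, 25.2 in the polyclonal population, 18.6 in clone 6 and 17.8 in clone 3, as means of 2 cultures (edgeR adjusted p = 0.00936). PSMB2 means were 97.4 to 106 CPM and not called by origin (edgeR adjusted p = 0.782).

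Beyond the members, 44 of 47 listed genes of ubiquitin supply, substrate delivery, the immunoproteasome and NFE2L1 control were tested, and 5 rose and 1 fell (7.63% of all tested genes were called in either direction). Their median log2 fold change was 0.08.

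Called genes included some of substrate delivery, NFE2L1 control and the immunoproteasome. Without the replicate block 0 of the 44 were called by edgeR. UFD1 and NPLOC4, the pair of cofactors that guide the unfoldase VCP to ubiquitin, had log2 fold changes of 0.35 (SE 0.0586) and 0.24 (SE 0.0498), with edgeR adjusted p-values of 0.0181 and 0.0326. VCP itself had 0.17 and did not pass (edgeR adjusted p = 0.0702). MAFK, a small MAF, had 0.43 (SE 0.0997) and BTRC, a substrate adaptor of a ubiquitin ligase that acts on NFE2L1, had 0.29 (SE 0.0657), both with an edgeR adjusted p near the threshold (0.043 and 0.0427). PSMB8, an inducible beta subunit, was low throughout. It was at 5.92, 7.88, 8.02 and 4.58 CPM in the controls and 4.91, 3.52, 3.39 and 2.86 CPM with doxycycline, a log2 fold change of -0.84 (SE 0.196, edgeR adjusted p = 0.044). PSMB9, its partner, was at or under 1.19 TPM and was not tested, and PSMA8 and PSMB11, of the testis and thymus proteasomes, were listed at 0 in each library. Without clone 5, clone 6 or clone 3, 1 of the 44 was called in each case. In the same order, 175 of 15999, 230 of 16436 and 461 of 15945 tested genes were called in either direction. In these fits 1 of 44 is near the share of all genes.

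**Figure D4:**
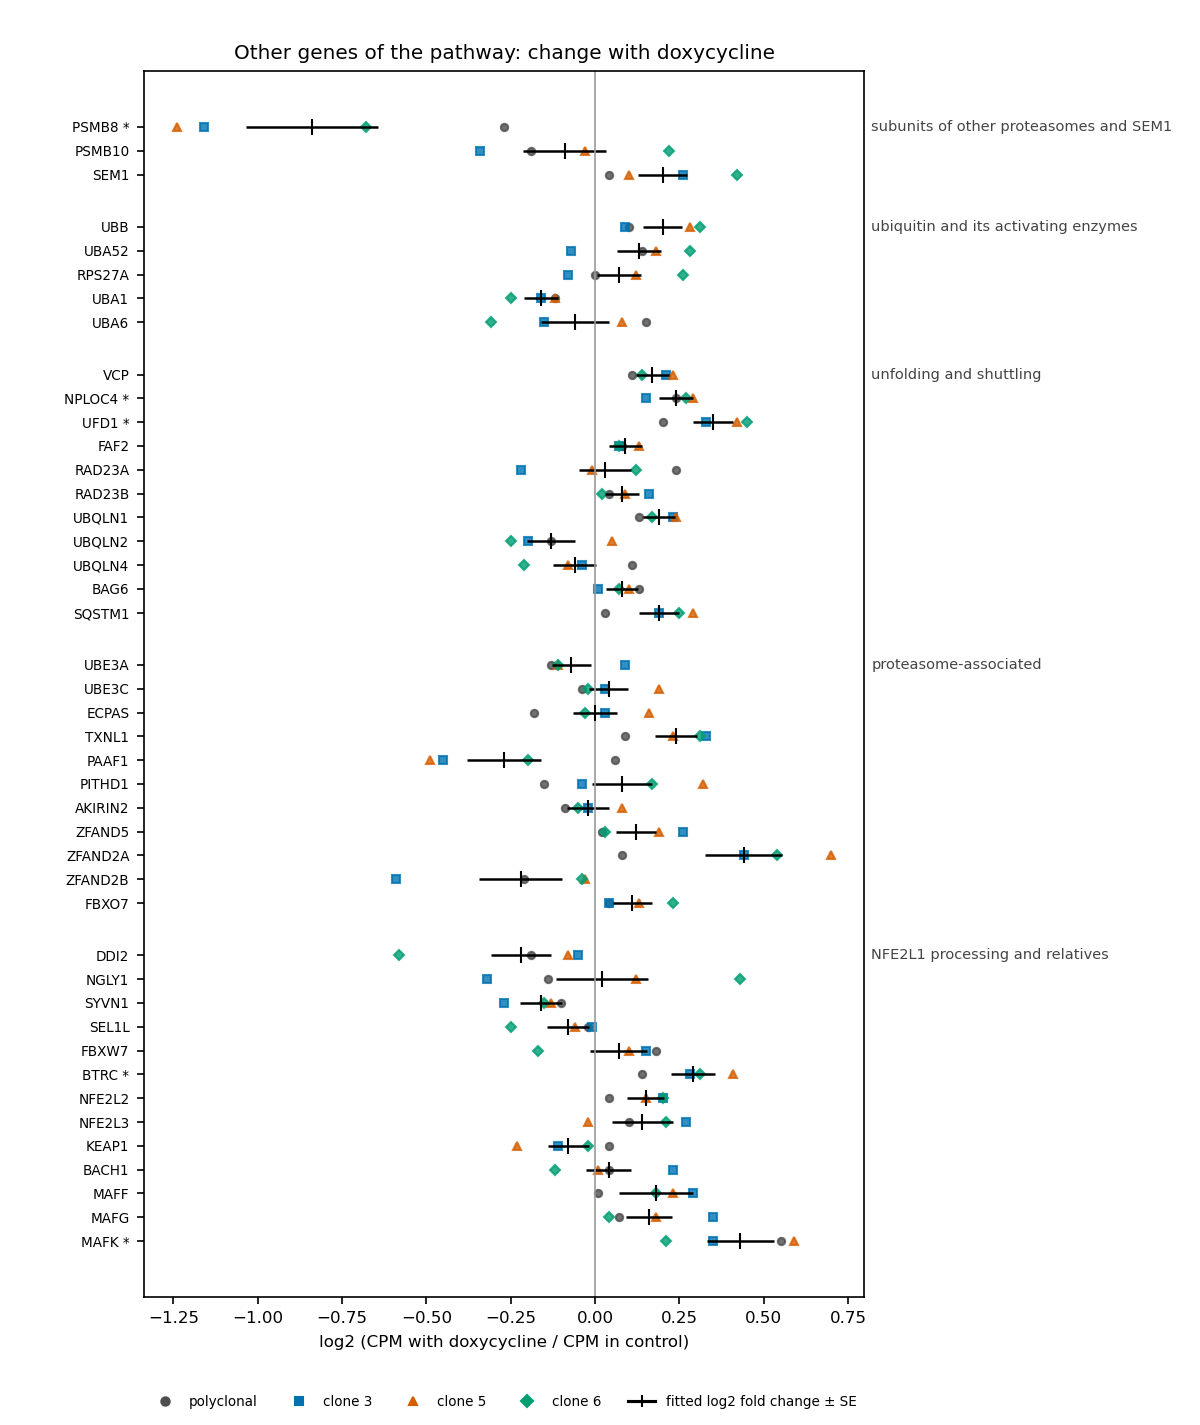
Log2 ratio of CPM with doxycycline to CPM in the control for 43 of the 44 other genes of the pathway that were tested, in each origin (coloured points), with the fitted log2 fold change and its SE (black). A star marks called genes, of which PSMB8 is the 1 that fell, by 0.84 on the log2 scale, and MAFK has 0.43.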

How the data were processed

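RNA-seq libraries of 4 control and 4 doxycycline cultures were used. Salmon was run by the authors against RefSeq transcripts of GRCh38. Per library, they deposited an estimated count, an effective length and a TPM value for each of 158867 transcripts. Their DESeq2 table was used only for its mean, the deposited average signal of normalized counts over the libraries, to see how many reads were matched; its fold changes and p-values were not used. Transcripts were matched to symbols through the reference tables (72.6% of transcripts, 89.9% to 91.1% of reads), summed per gene, rounded to whole numbers, filtered with filterByExpr and normalized by TMM. The main test was the quasi-likelihood test of edgeR 4.0.16 (R 4.3.3), with origin as a block and Benjamini-Hochberg adjustment over 15993 genes at 0.05. TPM was used only to compare levels between genes.

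Same-numbered cultures share an origin, and their deviations from the group means correlated at 0.406 to 0.59, against -0.395 to 0.179 for different origins. The study's methods name no pairing. The members, the lists of pathway genes and markers, and the tests were chosen with earlier results of these data known. Named genes are PSMB2, the called members, the highest and lowest member of each role, members with 1 library far from the other 3, and called pathway genes. DESeq2 1.42.0, its size factors, 2 other count filters, curated transcripts only, a length offset, no block and leaving out each origin were the alternatives. The fits were tested on simulated data. Reference transcripts were from GENCODE release 44, promoters from RefSeq GRCh38.p14, and Python 3.11.15 with pandas 2.3.3, numpy 2.4.6 and matplotlib 3.10.9 was used. ChIP-seq and RT-qPCR were not analysed here, and 1 pathway gene and 1 site are not reported here.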

Additional observations from a re-analysis of the deposited data

Results flagged for a closer look

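Of 96 groups of 4 cultures (48 members in control and doxycycline), 5 held a culture whose gap to the nearest other was past Dixon's limit as a share of the group's range, which chance alone gives in about 1 of 20 groups (4.8 of 96). PSMA6 was at 392 CPM in clone 6 with doxycycline, against 261 to 274 CPM in the other 3 doxycycline cultures. PSMG1 was at 85.1 CPM in the same culture, against 62.0 to 65.7 CPM. PSMG2 was at 50.9 CPM in the control of clone 6, against 36.5 to 38.8 CPM in the other controls. PSMB7 was at 238 CPM in the polyclonal control, against 278 to 282 CPM, and PSMD9 at 47.4 CPM in the same culture, against 56.1 to 57.0 CPM. Each of the high values was in clone 6 and each of the low ones in the polyclonal population.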

How the results depend on the processing

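PSMB2 kept its direction in each alternative, with log2 fold changes of -1.396 to -1.576. It was the lowest of the 14 core subunits per length in each of the 6 settings in which the rank was recomputed (curated transcripts, TMM-scaled reads per kilobase and leaving out each origin). The median of the other 47 members stayed above 0, from 0.14 to 0.229. Counts of calls did move. Without the replicate block, which removes the pairing by origin, 0 of the 47 members, 0 pathway genes and 1 of all genes were called by edgeR, against 15 members and 5 pathway genes at an unadjusted p under 0.05. DESeq2 with the block called 23 members, 12 pathway genes and 1920 genes in all. Curated transcripts alone gave 6 members, 3 pathway genes and 493 genes. With 1 origin left out the counts were 0 to 11 members, 1 to 4 pathway genes, 175 to 699 genes and 12 to 33 members called by origin. Apart from the fewer cultures in those fits, the cause was not tested. Counting only the 43 members with at least 90% of reads matched, an alternative chosen after seeing the data, gave the same 15 calls. With 1 origin left out PSMD7 had log2 fold changes of -0.00045 to 0.123, changing sign without clone 6, and PSMG3 had -0.383 to 0.258, changing sign without the polyclonal population or clone 5 (0.029). UCHL5 changed sign with curated transcripts (-0.026). Across 36 named genes, 100 of the single-gene values lost their call, 7 gained one, 4 reversed and 285 did neither. Only the 15 members and 6 pathway genes called in the main fit could lose a call. The 285 therefore include values of genes that had no call to lose.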
